A study of Homo sapiens with 8 samples.

Results

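The nuclear genes of mitochondrial respiratory chain complexes I to IV were followed in NB4, a cell line derived from acute promyelocytic leukaemia, under knockdown of the cyclin-dependent kinase CDK2. Members were taken by name: the succinate dehydrogenase genes, and every gene whose symbol begins with NDUFA, NDUFB, NDUFC, NDUFS, NDUFV, UQCR, COX4, COX5, COX6, COX7 or COX8, each read from its brightest probe set among those annotated to a single gene. The array held 72 such genes of 18132 genes in all. They comprised 36 genes of complex I, 3 of complex II, 8 of complex III and 17 of complex IV. The prefix NDUFA also takes in the 8 NDUFAF genes, whose products help to build complex I without staying in it, and these were kept as a class of their own. The prefixes likewise take in UQCRHL, a retrocopy of UQCRH, and COX7A2L, which joins complexes into supercomplexes. Genes of these families without a usable probe set, and the subunits encoded by mitochondrial DNA, were not analysed here.

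Cells received lentivirus carrying shCDK2 #1, shCDK2 #3, shCDK2 #10 or a scrambled control (scramble), and RNA was collected at day 2, called an early differentiation stage by the submitters, or at day 5, called a late one. All groups thus share the cell line and a lentiviral transduction, and no untransduced cells were included. Each construct has 1 array per day, 8 arrays in all, so the 3 hairpins are the only repeats of the knockdown and scramble has 1 array at each day. Nothing in the labels says that the arrays of one construct came from separate transductions. In the tests of single hairpins the 2 days stand in as repeats of a construct. In the tests by day the 3 hairpins stand in as repeats of the knockdown. Neither spread is known to measure that between repeated transductions of 1 construct, so the p-values do not measure it.

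Complex I (NADH:ubiquinone oxidoreductase) takes electrons from NADH through a matrix arm and pumps protons through a membrane arm. Complex II (succinate dehydrogenase) feeds electrons from the citrate cycle, complex III (cytochrome bc1) passes them to cytochrome c, and complex IV (cytochrome c oxidase) hands them to oxygen. Their nuclear subunits are made in the cytosol, imported, and assembled with those encoded in mitochondria, and many of their promoters are known to carry sites for the nuclear respiratory factors NRF1 and NRF2 (GABP, an ETS-family factor).

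The knockdown itself differed between arrays. CDK2 read 7.78, 9.03 and 7.54 log2 on the day 2 arrays of shCDK2 #1, #3 and #10, against 9.10 on the day 2 scramble array. At day 5 it read 7.89, 7.72 and 8.08 on the arrays of #1, #3 and #10, against 8.19 on the scramble array. The array labelled shCDK2 #3 at day 2 thus lay near scramble, and the array labelled scramble at day 5 lay closer to the hairpin arrays than to scramble at day 2. The members' medians are given with and without these arrays. Single-gene differences include both unless stated, and no comparison at day 5 can be made without its scramble array. Of 6 promyelocytic markers measured, MPO, a granule peroxidase of myeloid precursors, read 13.4 to 14.4 log2 on every array, while ELANE, neutrophil elastase, lay between 5.83 and 6.35, near the 5.83 log2 below which genes were not tested. On the #10 array at day 2, where the members differed most, MPO read 13.37 against 14.35 with scramble, and of the granule proteases PRTN3 read 9.99 against 11.18 and CTSG read 8.02 against 9.29. AZU1 and CEBPE lay above scramble on that array, the list's median difference was -0.70, and none of the 6 passed the test. PECAM1, an adhesion molecule listed as an endothelial marker, read 11.25 against 9.08 on that array, with CDH5 and VWF between 5.4 and 7.2 on all arrays. Of the lymphoid genes, CD3D, a T-cell receptor component, was higher with #10, at 11.3 and 10.9 log2 at days 2 and 5 against 8.8 and 8.8 with scramble (log2 change 2.25, SE 0.20, adjusted p 0.013). The other T-cell gene of that list, CD3E, lay between 5.8 and 6.4 log2 on all arrays, also close to that value. The part of such differences in the results was not tested.

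Promoter sequences of 61 of the 72 members were found in RefSeq (GRCh38.p14), as the 250 bases before the annotated start. An NRF1 core, GCGC followed by AN and then GCGC on either strand, lay in 10 of these 61 windows (16.4%), against 5.53% of 27305 RefSeq promoters. An ETS core, CCGGAAG on either strand, lay in 14 (23.0%), against 8.82% of all promoters. At least 1 of them lay in 22 of 61 member windows (36.1%), against 13.4% of all. The 27305 promoters were not restricted to protein-coding genes, whereas all 72 members are protein coding, so the sets may be unlike. The sequences below belong to members that the expression results turn on: 4 with large differences under #10, and NDUFB4, which differed in the other direction at day 5. Capitals mark the cores.
NDUFA3 promoter, chr19:54102605-54102854, plus strand: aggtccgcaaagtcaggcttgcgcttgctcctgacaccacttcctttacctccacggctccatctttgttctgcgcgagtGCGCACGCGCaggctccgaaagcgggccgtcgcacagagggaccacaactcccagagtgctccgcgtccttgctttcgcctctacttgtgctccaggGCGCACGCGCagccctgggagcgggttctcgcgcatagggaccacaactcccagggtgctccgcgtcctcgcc
UQCRC1 promoter, chr3:48609647-48609896, minus strand: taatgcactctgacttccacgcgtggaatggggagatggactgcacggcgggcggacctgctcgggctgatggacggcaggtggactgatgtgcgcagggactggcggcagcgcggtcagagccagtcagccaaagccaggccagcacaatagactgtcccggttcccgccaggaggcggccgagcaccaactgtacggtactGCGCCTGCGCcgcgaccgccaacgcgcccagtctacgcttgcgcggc
UQCRQ promoter, chr5:132866392-132866641, plus strand: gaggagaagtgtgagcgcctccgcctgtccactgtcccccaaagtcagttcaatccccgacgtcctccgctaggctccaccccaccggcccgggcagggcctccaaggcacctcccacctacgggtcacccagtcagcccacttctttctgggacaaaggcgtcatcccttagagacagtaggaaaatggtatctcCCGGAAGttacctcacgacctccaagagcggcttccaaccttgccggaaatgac
NDUFAF8 promoter, chr17:81239664-81239913, plus strand: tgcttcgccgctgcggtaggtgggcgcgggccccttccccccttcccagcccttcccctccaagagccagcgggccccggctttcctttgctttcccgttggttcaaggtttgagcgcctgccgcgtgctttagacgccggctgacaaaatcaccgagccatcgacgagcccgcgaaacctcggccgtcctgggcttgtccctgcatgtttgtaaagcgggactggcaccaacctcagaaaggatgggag
NDUFB4 promoter, chr3:120596086-120596335, plus strand: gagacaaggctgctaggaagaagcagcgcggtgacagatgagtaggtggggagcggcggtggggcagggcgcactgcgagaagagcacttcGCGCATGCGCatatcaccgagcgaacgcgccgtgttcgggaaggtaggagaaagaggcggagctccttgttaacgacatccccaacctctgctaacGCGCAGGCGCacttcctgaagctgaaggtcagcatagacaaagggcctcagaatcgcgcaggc

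The NDUFA3 window holds the NRF1 core at 2 places and so does the NDUFB4 window, the UQCRC1 window holds it at 1, the UQCRQ window holds the ETS core at 1, and the NDUFAF8 window holds neither. A core is a match of letters and is not a measured binding site. Among members lower by more than 0.5 log2 on the #10 array at day 2, 10 of 25 windows (40%) held a core, and among the other tested members 11 of 34 (32.4%) did.

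Of the 72 members, 70 were bright enough to be tested. The 2 that were not are COX7B2 and COX8C, complex IV isoform genes known from testis, which averaged 3.28 and 4.30 log2. No member passed an adjusted p of 0.05 in any of the 8 comparisons made with limma. In the comparison with most calls, #10 against scramble, 2.01% of all 12845 tested genes passed, against 0 of 70 members. Of those 258 genes, 41 were lower. The corresponding shares of all genes were 0.0311% for #3 and 0 for #1. For #10 against #1 the share was 0.327%. At an unadjusted p under 0.05, 17 of 70 members were lower with #10 and 0 were higher, where 9.53% of all genes were lower. For #3 there were 4 lower members (all genes 3.15%), and for #1 there was 1 (all genes 0.958%). The respiratory chain genes are bright, and the 1783 tested genes with a mean above 10 log2, a set defined after the values had been seen, are a closer background. Of those, 20.7% were lower with #10 at the same unadjusted threshold, near the members' share of 24.3%.

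The members lay mostly on one side. Most tested genes did too, since the median over all of them was below 0 for each hairpin. Shares of all genes lower were not set beside the counts that follow. With #10, 61 of 70 members were lower than scramble and 9 higher, with a median difference of -0.22 log2 over the members, against -0.09 over all tested genes and -0.15 over the bright genes. With #3, 51 were lower (median -0.14, all genes -0.07), and with #1, 56 were lower (median -0.08, all genes -0.02). The one-sidedness of #1 and #3 was not stable. Under quantile normalization 33 of 70 members were lower with #1 (median 0.0067), and without the #1 array at day 2 there were 39 (median -0.024). With #3, 38 were lower without its day 5 array (median -0.028) and 40 without the day 2 scramble array (median -0.082). These 3 comparisons share the same pair of scramble arrays, so their common direction is not independent evidence. Without the array labelled scramble at day 5 the members' medians were -0.15 log2 for #1, -0.16 for #3 and -0.28 for #10, and without the array labelled #3 at day 2 the median for #3 was -0.26. Without the #10 array at day 2 the median for #10 was -0.14, with 59 of 70 lower.

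Array by array, the largest shift was at day 2 with #10. There the members' median difference from scramble of the same day was -0.38 log2, against -0.15 for #1 and -0.10 for #3, while the medians of all genes were -0.03, 0.01 and 0.03 for #10, #1 and #3. The mean signal of the bright genes at day 2 was 11.29 with scramble and 11.16, 11.18 and 11.17 with #1, #3 and #10. That of the members was 11.24 with scramble and 11.08, 11.13 and 10.81 with #1, #3 and #10. Bright genes thus lay below that scramble array about as far as members did with #1 and #3, but less far with #10. At day 5 the members' medians were -0.03 for #1, -0.20 for #3 and -0.16 for #10, while those of all genes were -0.03, -0.09 and -0.11. On the #10 array at day 2, 28 of 70 members were lower by more than 0.5 log2 (40%), against 15% of all genes and 31.6% of the bright genes. At day 2 it was 5 of 70 with #1 (all genes 6.84%) and 5 with #3 (8.84%), and at day 5 it was 1 with #1 (4.53%), 8 with #3 (16.4%) and 6 with #10 (8.01%). Both #10 arrays lay below both scramble arrays for 41 of 70 members, against 32.9% of all genes and 42.7% of the bright genes. The #10 array at day 2 held the lowest of the 8 signals for 32 of 70 members, against 15.2% of all genes. The day 2 scramble array held the highest for 32 of 70, against 16.4%. For these lowest and highest signals the bright genes' shares, a closer background, were not computed.

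**Figure D1:**
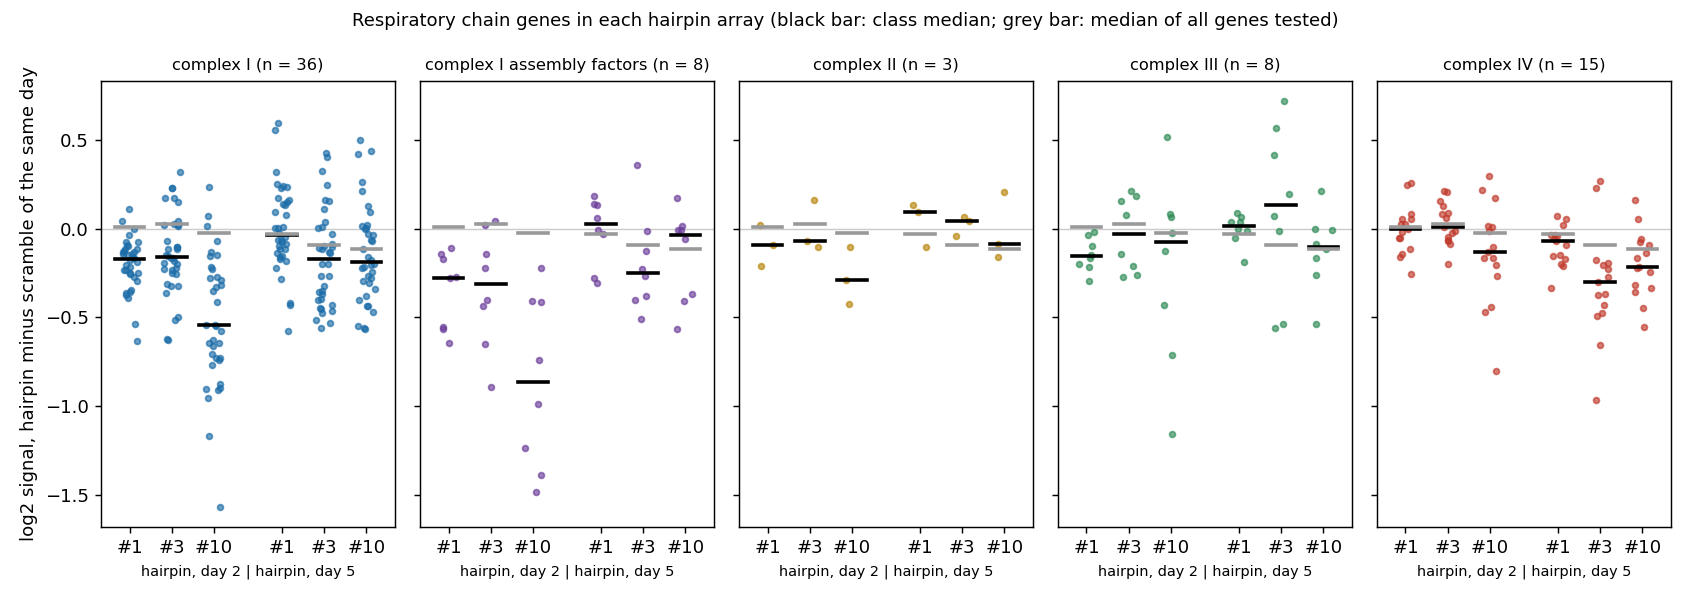
Difference of each tested member from the scramble array of the same day, in log2 units, for each hairpin at day 2 and day 5, by complex, with points for genes and bars for class medians. The complex I and assembly factor points reach lowest on the #10 array at day 2, with class medians of -0.54 and -0.86 log2.

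Complex I supplied 20 of the 28 members lower by more than 0.5 log2 on the #10 array at day 2. With #10, 32 of its 36 genes were lower than scramble, with a class median of -0.27 log2, and 10 of the 36 (27.8%) had an unadjusted p under 0.05, where 9.53% of all genes and 20.7% of the bright genes were lower. Those 20 are of 36, and the class median on that array was -0.54, while at day 5 it was -0.19 for the same hairpin. The matrix arm, which holds the flavin and the iron-sulphur centres, and the membrane arm had medians of -0.29 over 15 genes and -0.25 over 21 under #10. With #3 the class median was -0.14 and with #1 it was -0.09.

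The lowest complex I gene under #10 was NDUFA3, a small accessory subunit. Its signal at day 2 was 12.07, 12.44 and 11.05 log2 on the #1, #3 and #10 arrays, against 12.61 on the scramble array. At day 5 it was 12.54, 12.22 and 12.32 on the #1, #3 and #10 arrays, against 12.66 with scramble. The #10 array at day 2 alone lies more than 1 log2 below its scramble array. Over both days the #10 difference was -0.95 log2 (SE 0.34, 95% interval -1.73 to -0.17, adjusted p 0.170). With the day 5 scramble array left out it was -1.18. Of the 3 bright NDUFA3 probe sets, the other 2 gave -0.91 each. A dimmer NDUFA3 probe set, with a mean of 7.39 log2, gave -0.03.

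The membrane-arm accessory subunits, NDUFB2, NDUFB7 and NDUFB10 were low under #10 on both days. NDUFB10 read 11.98, 11.84 and 11.47 log2 at day 2 on the #1, #3 and #10 arrays, against 12.35 with scramble. At day 5 it read 11.92, 11.56 and 11.45 on those arrays, against 12.00 with scramble. All 6 hairpin arrays lie below both scramble arrays, an ordering found for 13 of 70 members and 5.08% of all genes. Its share of the bright genes was not computed. The #10 differences were -0.71 log2 for NDUFB10 (SE 0.18, adjusted p 0.089), -0.73 for NDUFB7 (SE 0.19, adjusted p 0.086) and -0.66 for NDUFB2 (SE 0.17, adjusted p 0.091). With #3 they were -0.48, -0.53 and -0.55 in the same order of genes, where NDUFB2 had an adjusted p of 0.388. These 3 genes passed the threshold against scramble for #10 when either #3 array was left out, with adjusted p of 0.049, 0.044 and 0.046 for NDUFB10, NDUFB7 and NDUFB2. Over all genes 960 passed there, in place of 258.

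Among core subunits, which have bacterial counterparts, NDUFS3 and NDUFS8 were the lowest under #10. NDUFS8, which holds a pair of iron-sulphur clusters, read 11.75, 11.70 and 11.16 log2 at day 2 with #1, #3 and #10, against 11.90 with scramble. The day 5 values were 11.81, 11.20 and 11.28 with #1, #3 and #10, against 11.71 with scramble. Under #10 the difference was -0.59 log2 for NDUFS8 and -0.60 for NDUFS3. The other core subunits differed by -0.47 for NDUFS7, -0.37 for NDUFS1, -0.26 for NDUFV2 and -0.20 for NDUFV1, the flavin-bearing subunit. NDUFA9, an accessory subunit beside the quinone site, read 9.81 log2 with #10 at day 2 against 10.97 with scramble, and 10.27 against 10.57 at day 5 (change -0.74, SE 0.25, adjusted p 0.157). NDUFS6, a zinc-binding accessory subunit, differed by -0.65 (SE 0.21, adjusted p 0.138).

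NDUFC1 was the lowest complex I member with #1, the only member with an unadjusted p under 0.05 there. It read 11.10 and 11.32 log2 with #1 at days 2 and 5, against 11.73 and 11.76 with scramble. With #3 it read 11.62 and 11.65, close to scramble, and with #10 it read 10.77 and 11.29. The differences were -0.53 log2 for #1 (SE 0.20, adjusted p 1.0) and -0.71 for #10 (SE 0.20, adjusted p 0.102).

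A few complex I genes lay above scramble. NDUFB5, a membrane-arm subunit, differed by 0.22 log2 with #10 (SE 0.18, adjusted p 0.577) and by 0.29 with #3 (SE 0.18, adjusted p 0.652). NDUFB4, another membrane-arm subunit, read 11.85, 11.72 and 11.80 log2 at day 5 with #1, #3 and #10, against 11.30 with scramble. All 3 hairpin arrays lie above that scramble array, which is the lowest of the 8 for this gene, whereas at day 2 they read 11.79, 11.83 and 11.75, against 11.90. The day 5 difference, which rests on the array labelled scramble at day 5, was 0.49 log2 (SE 0.18, adjusted p 0.913), and NDUFB4 was the only member with an unadjusted p under 0.05 at that day, where 1.33% of all genes had one. At day 2 that threshold was passed by 2 members, NDUFA5 and NDUFAF8, both lower, against 3.23% of all genes lower. The brightest complex I probe set belonged to NDUFA11, which stabilises the membrane arm, at 12.33 to 12.88 log2, and the dimmest to NDUFA5, a matrix-arm subunit, at 8.22 to 9.01.

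**Figure D2:**
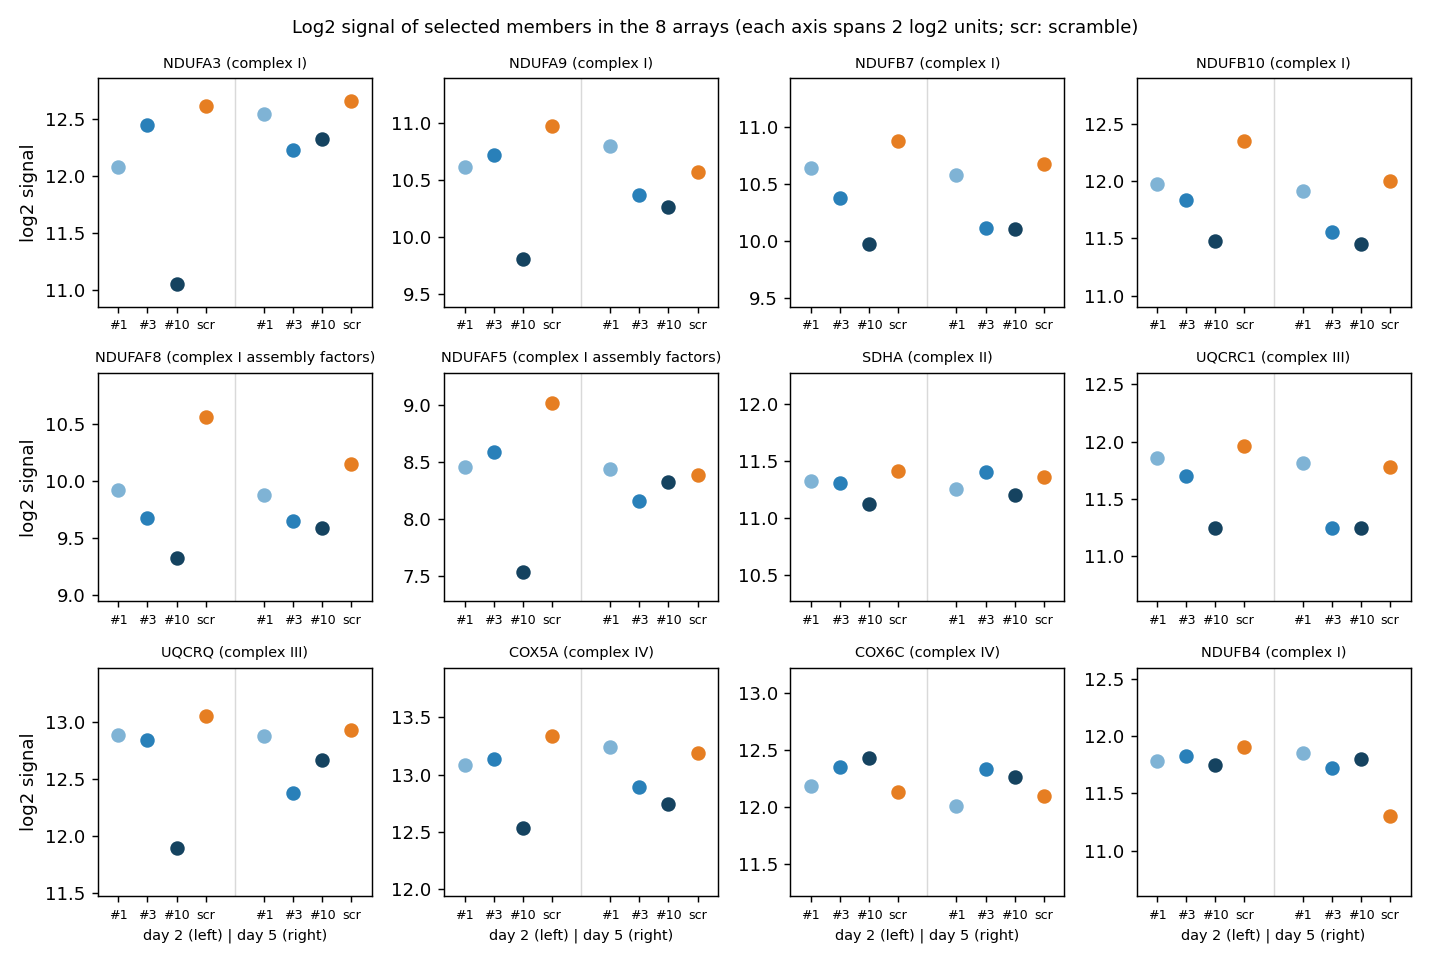
Signal in log2 units on each of the 8 arrays for selected members, by construct, with day 2 and day 5 marked separately. NDUFA3 and UQCRQ have 1 low value, that of #10 at day 2, at 11.05 and 11.90, while NDUFB10 and NDUFAF8 are lower than both scramble arrays on all 6 hairpin arrays.

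The assembly factors had the lowest class median for each hairpin over both days, but not at day 5, where the shCDK2 medians were -0.10 for them, -0.16 for complex I and -0.23 for complex IV. With #10 all 8 were below scramble, with a median of -0.63 log2, and 4 of the 8 had an unadjusted p under 0.05 (all genes lower 9.53%, bright genes 20.7%). On the #10 array at day 2 the median was -0.86, against -0.03 at day 5. With #3 the median was -0.32 and with #1 it was -0.20. Without the day 2 scramble array, which is the highest of the 8 for 5 of these 8 genes, the #3 median was -0.06.

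NDUFAF8, which acts with NDUFAF5 on a core matrix-arm subunit, had the smallest adjusted p of any member. It read 9.92, 9.68 and 9.33 log2 at day 2 with #1, #3 and #10, against 10.56 with scramble. At day 5 it read 9.87, 9.65 and 9.59 with #1, #3 and #10, against 10.15 with scramble. Every hairpin array lies below both scramble arrays. The differences were -0.46 log2 for #1 (SE 0.21, adjusted p 1.0), -0.70 for #3 (SE 0.21, adjusted p 0.373) and -0.90 for #10 (SE 0.21, 95% interval -1.38 to -0.42, adjusted p 0.074). Without the array labelled scramble at day 5 they were -0.70, -0.93 and -1.14 for #1, #3 and #10.

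NDUFAF5, a hydroxylase of that same core subunit, read 8.46, 8.59 and 7.54 log2 at day 2 with #1, #3 and #10, against 9.02 with scramble. The day 5 signals were 8.44, 8.15 and 8.32 with #1, #3 and #10, against 8.38 with scramble, so the constructs overlapped. Its #10 difference over both days was -0.77 (SE 0.33, adjusted p 0.243). NDUFAF4, an early assembly factor, was lower with #10 on both days, at 8.47 and 8.83 log2 against 9.46 and 9.24 with scramble (change -0.70, SE 0.22, adjusted p 0.138). NDUFAF6 differed by -0.55, whereas NDUFAF1, NDUFAF3 and NDUFAF7 differed by -0.12, -0.21 and -0.10.

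Complex II had a class median of -0.22 log2 with #10, -0.03 with #3 and -0.04 with #1, over 3 genes. SDHA, the flavoprotein that oxidises succinate, read 11.32, 11.31 and 11.13 log2 at day 2 with #1, #3 and #10, against 11.41 with scramble, and 11.26, 11.40 and 11.20 at day 5, against 11.36. Under #10 its difference was -0.22 log2 (SE 0.17, 95% interval -0.62 to 0.18). The membrane anchors SDHC and SDHD differed by 0.05 (SE 0.18, interval -0.38 to 0.48) and -0.25 (SE 0.19, interval -0.69 to 0.18). These intervals hold 0 and also hold differences as large as the complex I median, so they do not show that complex II was unaffected. SDHA has near-identical pseudogene copies, and its probe sets may read them.

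Complex III was mixed. With #10, 7 of 8 genes were lower but the median was only -0.07 log2, and with #3 the median was 0.08. UQCRC1, a core protein facing the matrix, was low in 3 of the hairpin arrays. It read 11.86, 11.70 and 11.25 log2 at day 2 with #1, #3 and #10, against 11.96 with scramble. Its day 5 values were 11.82, 11.24 and 11.24 with #1, #3 and #10, against 11.78 with scramble. The #10 difference was -0.62 (SE 0.19, adjusted p 0.127), and that for #3 was -0.40 (SE 0.19, adjusted p 0.562).

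UQCRQ, a small subunit next to cytochrome b, read 12.89, 12.84 and 11.90 log2 at day 2 with #1, #3 and #10, against 13.05 with scramble, and 12.88, 12.37 and 12.67 at day 5, against 12.93. One array, #10 at day 2, stands more than 1 log2 below the scramble array (change over both days -0.71, SE 0.29, adjusted p 0.224). The second core protein, UQCRC2, differed by -0.07 with #10 and by 0.31 with #3. The hinge protein gene UQCRH, the brightest of the class at 12.69 to 13.06 log2, differed by -0.05 with #10. UQCRH and its retrocopy UQCRHL may share probes and cannot be told apart with certainty.

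UQCRB, a ubiquinone-binding subunit gene, was the highest member with #3 and #10. It read 9.73, 10.09 and 10.45 log2 at day 2 with #1, #3 and #10, against 9.93 with scramble, and 9.39, 10.29 and 9.79 at day 5, against 9.57. The differences were 0.44 for #3 (SE 0.23, adjusted p 0.604) and 0.36 for #10 (SE 0.23, adjusted p 0.454), and -0.19 for #1 (SE 0.23, adjusted p 1.0). Dimmer UQCRB probe sets differed in the other direction, the next brightest by -0.72 with #10, so no direction is given for this gene. Across the 39 members with several probe sets above the filter, all were lower with #10 in 32 genes, all higher in 3, and split in 4.

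Complex IV lay near scramble at day 2 and below it at day 5. Its median on the #1, #3 and #10 arrays was 0.00, 0.01 and -0.13 log2 at day 2, and -0.07, -0.30 and -0.22 at day 5. At day 5 all 3 hairpin arrays were below scramble for 11 of its 15 tested genes, against 30 of 70 members and 30% of all genes. That count rests on the array labelled scramble at day 5. It includes COX4I2, COX6A2, COX6B2 and COX7A1, the dimmest tested genes of the class, described below. They had the largest falls of the tested class with #3 at day 5, at -0.48, -0.49, -0.65 and -0.96. For 9 of the 15 the lowest of the 8 signals came from #3 at day 5, which over all probe sets had the lowest median and the widest spread of signals (6.30 log2, SD 2.26) and over the tested genes the highest median (7.99).

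COX5A, a matrix-side subunit, was the lowest complex IV gene under #10. It read 13.08, 13.14 and 12.53 log2 at day 2 with #1, #3 and #10, against 13.34 with scramble, and 13.24, 12.89 and 12.75 at day 5, against 13.19. Both #10 arrays lie below all others (change -0.62, SE 0.20, adjusted p 0.134). COX6C lay above scramble by 0.23 with #10 (SE 0.17, adjusted p 0.533) and by 0.22 with #3 (SE 0.17, adjusted p 0.688). The brightest gene of the class, COX6A1, at 13.61 to 14.00 log2, differed by 0.04 with #1, and COX7B by -0.15.

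Several complex IV subunits come as a widely expressed form and a tissue-restricted one. The tested restricted forms read dimmer than the rest of the tested class on every array. By mean signal, COX6A2 and COX6B2 lay at percentiles 59.1 and 58.0 of all genes, and COX4I2 and COX7A1 at 42.3 and 35.6. COX4I2, a lung and hypoxia-linked form, lay between 6.30 and 6.77 log2, and COX7A1, a heart and muscle form, between 5.63 and 6.59. COX6A2, of heart and muscle, lay between 7.27 and 7.77, and COX6B2, of testis, between 7.15 and 7.81. Their widely expressed counterparts differed little under #10, by -0.08 log2 for COX4I1, -0.17 for COX6A1, -0.19 for COX6B1 and -0.15 for COX7A2, while COX8A differed by -0.38. COX4I2 and COX6A2 differed by 0.00 and -0.20. COX7A1 was the lowest complex IV gene with #3, by -0.44 (SE 0.26, adjusted p 0.627), but was not below scramble at day 2, and of the genes below it on both days COX6B2 was the lowest, by -0.36 (SE 0.21, adjusted p 0.625). The lowest COX6B2 signals were 7.15 and 7.25 at day 5 with #3 and #10, against 7.81 with scramble. Signals of different genes come from different probes, so these levels do not rank the isoforms against each other.

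Day 5 was then set against day 2. Within shCDK2, 48 of 70 members were lower at day 5 than at day 2, with a median of -0.06 log2, against -0.03 for all genes, and none had an unadjusted p under 0.05, where 0.67% of all genes were lower at that threshold. The hairpins did not share a course: the members' median change to day 5 was -0.03 for #1, -0.23 for #3 and 0.08 for #10, against -0.16 in the scramble arrays. With #10 the complex I median was 0.13 higher and the assembly factor median 0.27 higher at day 5 than at day 2. In scramble they were -0.18 and -0.35. The knockdown difference was -0.21 log2 over members at day 2 and -0.14 at day 5. Under quantile normalization these medians were -0.090 and -0.18, so the order of the days turned, and under centring on array medians they were -0.24 and -0.062. The difference between those days passed the threshold for none of the 70 members, with NDUFA5 the only one at an unadjusted p under 0.05 (0.83 log2), against 1.28% of all genes.

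**Figure D3:**
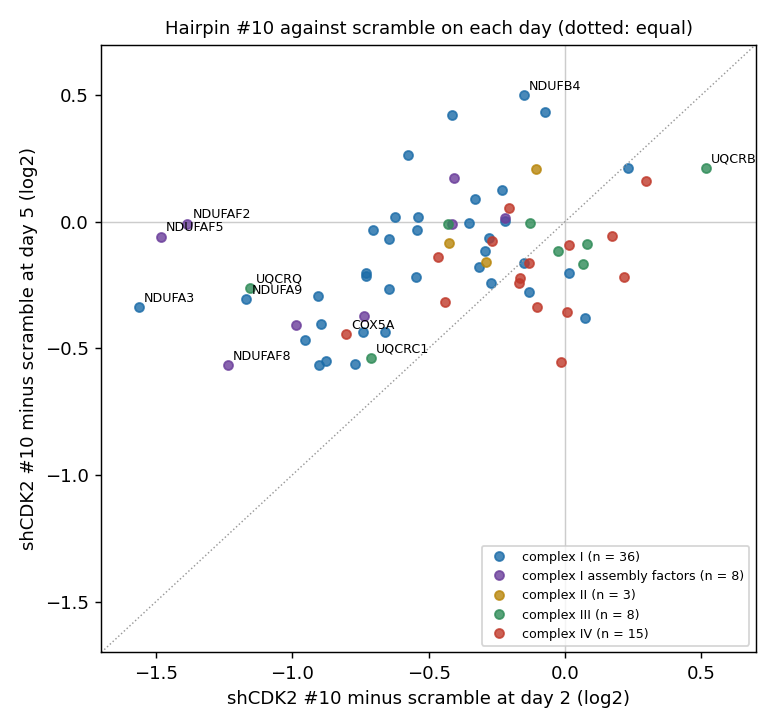
For each tested member, the #10 difference from scramble at day 2 (x axis) and at day 5 (y axis), in log2 units, coloured by complex. Most complex I and assembly factor genes lie further below 0 on the day 2 axis, where their medians are -0.54 and -0.86, than on the day 5 axis, where they are -0.19 and -0.03.

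The 2 hairpins with the least CDK2 at day 2 were set against each other. Relative to #1, 59 of 70 members were lower with #10, with a median of -0.16 log2, against -0.08 over all genes. Without the #10 array at day 2, 43 of 70 were lower (median -0.038). An unadjusted p under 0.05 was found for 12 of 70, near the 15.8% of all genes. Of these 12, UQCRB alone was higher. UQCRC1 differed by -0.59 (SE 0.19, adjusted p 0.198) and NDUFA9 by -0.67 (SE 0.25, adjusted p 0.253). None passed the adjusted threshold.

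Other mitochondrial genes, taken as lists, lay mostly on the same side, as did most tested genes with #10. None of the listed genes passed the test, where 2.01% of all genes passed with #10 (258 genes, 41 of them lower). Shares of all genes lower were not set beside the counts of these lists, so the counts are not told apart from the general shift. Of the ATP synthase (complex V) genes, 15 of 18 were lower with #10, with a median of -0.20 log2, against -0.09 over all tested genes. These genes are bright, and the bright genes' median given above lay between those values. Their mean signal with #10 and scramble was 12.04 and 12.35 at day 2, and 12.03 and 12.20 at day 5. That of the bright genes was 11.17 and 11.29 at day 2, and 11.18 and 11.18 at day 5. ATP5MC1, a gene of the rotor ring, read 9.97 and 10.36 log2 with #10 at days 2 and 5, against 11.29 and 10.92 with scramble (change -0.95, SE 0.24, adjusted p 0.09). Both electron carriers outside the rule were lower, CYC1 (cytochrome c1) by -0.55 and CYCS (cytochrome c) by -0.46. Of 39 further assembly factors 32 were lower (median -0.30), with COA7, a complex IV assembly factor, at -1.02, and BCS1L, which inserts the iron-sulphur protein into complex III, at -0.86.

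Regulators of mitochondrial biogenesis and citrate cycle enzymes also lay mostly below scramble with #10. Among 14 regulators, 11 were lower (median -0.41), including TFB2M, a mitochondrial transcription factor, by -0.84, and PPRC1, a coactivator, by -0.81. GABPA, POLG2 and TFB1M were higher. Of the factors whose cores were searched, NRF1 read 7.55 and 7.44 log2 with #10 at days 2 and 5, against 7.92 and 7.85 with scramble. GABPA, of GABP, read 7.28 and 7.01 with #10, against 7.08 and 6.56. Among 12 citrate cycle enzymes, 9 were lower (median -0.52). DLD, a subunit shared by several dehydrogenases, read 9.75 and 9.89 log2 at day 2 with #1 and #10, against 11.57 with scramble, and lay between 11.49 and 11.72 on all arrays of day 5. The median of all genes in this comparison was -0.09.

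Genes induced by hypoxia-inducible factor (HIF), a regulator whose targets include brakes on mitochondrial respiration, stood on the other side. Of 11 tested, 9 were higher with #10 and 5 passed the test (ADM, BNIP3, BNIP3L, NDRG1 and PDK1), against 2.01% of all genes, with a list median of 1.89 log2. These calls rest on both scramble arrays, since no gene passed when one or the other was left out. BNIP3, a mitophagy receptor, read 12.84 and 12.62 log2 at days 2 and 5 with #10, against 10.70 and 9.33 with scramble (change 2.71, SE 0.31, adjusted p 0.016). PDK1, a kinase that shuts off pyruvate dehydrogenase, read 9.33 and 9.02 with #10, against 7.68 and 6.90 with scramble (change 1.89, SE 0.30, adjusted p 0.039). The day 2 and day 5 list medians were -0.05 and 0.14 for #1, 1.24 and 2.28 for #3, and 1.65 and 1.97 for #10. The array labelled #3 at day 2, with CDK2 near scramble, had HIF targets at 1.24 and respiratory chain members at -0.10. The part of either list's values in the other was not tested.

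**Figure D4:**
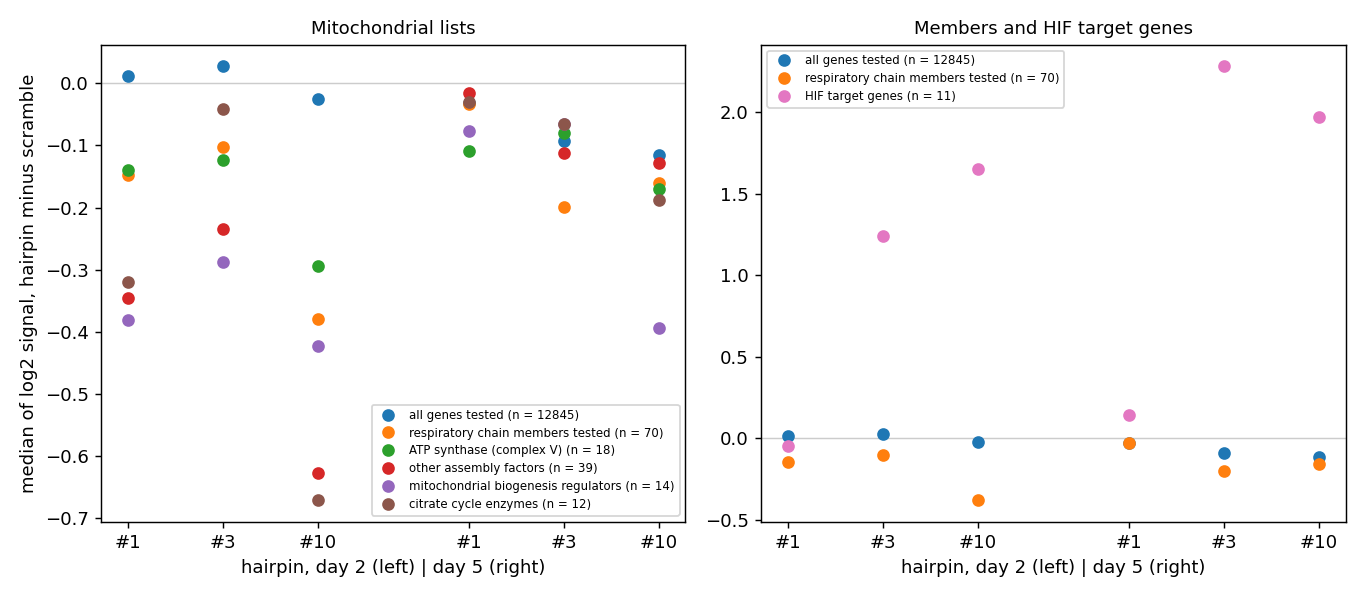
Median log2 difference from scramble of the same day for all genes, the members, 4 further mitochondrial lists and HIF targets, for #1, #3 and #10 at day 2 and day 5. The HIF target list lies at 1.24 to 2.28 on the #3 and #10 arrays, while the mitochondrial lists plotted lie between -0.67 and -0.02, lowest on #10 at day 2.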

How the data were processed

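RNA was hybridised to 1-colour Affymetrix arrays, 1 per construct and day. The authors deposited 1 value per probe set for 49395 probe sets, which were read as log2 signals from their range. Partek is named in the submitters' processing notes, and no version or normalization is given in the sources used here. The array annotation gave a single gene for 44994 of them. Genes were tested where the mean exceeded the 40th percentile of probe sets (5.83 log2). Values were used as deposited.

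Linear models in limma 3.58.1 (R 4.3.3, with the package data.table, version 1.17.8) were fitted over the 12845 tested genes, with empirical Bayes moderation, two-sided tests and Benjamini-Hochberg adjustment. Construct and day were terms for each hairpin against scramble (3 residual degrees of freedom). A mean per group and day served for the comparisons by day (4 residual degrees of freedom), in which the lone scramble array was assumed to vary like hairpin arrays. The code was tested on simulated data. Alternatives were other scalings, filters, probe set rules and priors, a replicate block, and arrays left out.

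Named members were the SDH genes, in each class the largest difference per hairpin with the same sign on both days, the isoform pairs, and the brightest and dimmest. NDUFB2, NDUFB7, NDUFB10, NDUFA9, NDUFB4, the core subunits, the other assembly factors, PDK1, CD3D and the other cell type markers were added after their values were seen. Members and lists were chosen with earlier results of these data known. The number of arrays limits the precision.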

Additional observations from a re-analysis of the deposited data

How the results depend on the processing

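Calls of members stayed at 0 in the scaling, filter, probe set and prior alternatives run for the 8 comparisons. For #10 against scramble, leaving out arrays gave 0 to 3 called members. Under quantile normalization the median log2 change was 0.014 for complex IV with #1, -0.16 for complex I with #3, and at day 2 -0.042 for complex II and 0.067 for complex III. Centring on array medians gave -0.095 for complex I and -0.27 for assembly factors with #3, and -0.039 for complex III with #10. When all probe sets of each gene were averaged, complex III was -0.10 with #3, -0.22 with #10, -0.23 at day 2 and -0.15 at day 5, complex IV was -0.10 with #1, and assembly factors were -0.26 with #3, while UQCRB reversed to -0.0091 with #3 and -0.22 with #10. The cause was not tested.

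Leaving out arrays moved class medians within ranges. With #1 these were -0.12 to 0.024 for complex IV and -0.31 to 0.047 for assembly factors. With #3 they were -0.31 to -0.038 for complex I, -0.46 to -0.063 for assembly factors and -0.076 to 0.063 for complex II. With #10 they were -0.27 to -0.11 for complex IV and -0.17 to -0.0087 for complex III, and for day 5 against day 2 they were -0.16 to -0.039 for complex III. For #10 against scramble the count over all genes was 258, 367 under quantile normalization, 82 with centring, 131 with the stricter filter, 960 without the array labelled #3 at day 2, and 0 without either scramble array.

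Hairpin numbers are shared between days. Residuals of the same hairpin correlated by 0.72, -0.23 and 0.43 over genes for #1, #3 and #10. Those of #10 at day 2 and #3 at day 5 correlated by 0.57. With so few arrays, these values do not settle whether the arrays of one hairpin are paired. With the replicate block (estimated correlation 0.27) 0 members were called, and the day 2 medians were -0.30 for complex I and -0.52 for assembly factors, as without it.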
